A study of Rattus norvegicus with 8 samples.

Results

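The transcripts described here encode the adenomatous polyposis coli protein (Apc) and its partners in the cytoplasmic complex that marks β-catenin for destruction. They were chosen by symbol, as the entries of the count table named Apc, Apc2, Ctnnb1, Axin1, Axin2, Gsk3a or Gsk3b. Apc headed the choice because its counts in the processes libraries were seen to be among the highest of the table. Of these 7 symbols, 6 had a row among the 28909 symbols of the table, and Axin1 was not analysed here. All 6 passed a filter of more than 20 reads in 2 or more libraries, which kept 14309 genes, and the least covered of them, Axin2, still had between 70 and 250 reads in every library. None of the 6 therefore entered the tests through 1 group alone.

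The cells were primary hippocampal neurons of embryonic Sprague-Dawley rats, kept on filter inserts. The pores are too narrow for cell bodies and let axons and dendrites grow through to the lower side. Cultures received either the vehicle, ethanol (controls), or picrotoxin (PTX), a blocker of GABA-A receptors that raises network activity. Treatment lasted 48 h, from day 18 to day 20 in vitro. RNA was taken from the upper side (somata) and from the lower side (processes), depleted of ribosomal RNA and sequenced. This gave 4 groups of 2 libraries, namely somata control, somata PTX, processes control and processes PTX. They compare a transcript between the 2 sides of the filter, and between control and PTX cultures on each side. Markers of astrocytes were read on both sides, as given below, so a difference between the sides need not lie within neurons. The labels number the libraries within a group without saying that they came from separate cultures, so the p-values below measure the spread between these libraries, which may be technical.

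In the absence of a Wnt signal, Apc and Axin hold β-catenin in place while the kinase Gsk3 phosphorylates it, and the marked protein is ubiquitinated and degraded. A Wnt ligand bound to a Frizzled receptor and its Lrp co-receptor recruits Dishevelled, halts the complex and lets β-catenin accumulate and act with TCF/LEF factors on target genes, of which Axin2 is among the best known. In neurons the same proteins have further roles. Apc binds microtubule plus ends and guides axon growth, it has also been described as an RNA-binding protein in cell protrusions, and β-catenin links cadherins to α-catenin at synaptic contacts.

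The libraries held between 12290890 and 18455662 counts. Transcripts of the mitochondrial genome took between 22.6% and 26.7% of the counts in somata and between 68.5% and 72.5% in processes, which left 9517542 to 11227599 counts for all other genes in a somata library and 4702054 to 5491237 in a processes library. Levels are given as CPM, counts per 1000000 after edgeR's TMM scaling, which sets libraries on a common scale by their typical gene, so that a difference between processes and somata is a difference relative to the other transcripts of the same RNA pool. Scaled by total counts alone, mitochondrial ones included, the median log2 fold change of all genes between processes and somata was −1.86 in control cultures. Under PTX it was −1.87, and after TMM scaling it was −0.05 in both conditions. Fewer cells of a type and less RNA per cell cannot be told apart in these bulk libraries.

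Cell type markers set the frame for the comparison of compartments. Of all tested genes 25.8% were called higher and 21.9% lower in processes of control cultures, the rate to set beside the marker counts. Among 10 neuronal markers, all tested, 2 were higher in processes of control cultures and 6 were lower. The higher ones were Map2, whose messenger RNA is known to lie in dendrites and which rose by 2.30 on the log2 scale, and Rbfox3. The lower ones were Tubb3, Snap25, Syt1, Slc17a7, Gad1 and Gad2. The median log2 fold change of the 10 was −0.47. Among 9 astrocyte markers, all tested, 4 were higher in processes and 2 were lower. The summed level of the 9 was 3975 and 4394 CPM in somata control, 3091 and 4114 CPM in somata PTX, 14681 and 13149 CPM in processes control, and 11236 and 12497 CPM in processes PTX. The most abundant of them, Gfap, the intermediate filament of astrocytes, had a log2 fold change of 2.60 between processes and somata of control cultures (SE 0.20, edgeR adjusted p = 3.15e-06), and S100b one of 2.16 (SE 0.15, edgeR adjusted p = 1.94e-06). Sox9 (0.61) and Aldoc (0.64) were also higher, Slc1a3 (−0.56) and Gja1 (−0.38) were lower, and Aqp4, Aldh1l1 and Fgfr3 were not called. The median of the 9 was 0.43, so the summed level mostly follows Gfap. None of the 9 was at 0 in any library. The part that astrocyte RNA had in the differences between compartments reported below was not tested.

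The other marker lists were low or mixed. In processes of control cultures 1 of 10 tested oligodendrocyte lineage markers was higher (Olig1) and 1 lower (Sox10). Of 5 markers of proliferating cells 2 were higher (Mki67 and Top2a) and 1 lower (Ccnb1), and of 6 fibroblast and pericyte markers 1 was lower (Pdgfrb), as was the only tested endothelial marker, Kdr. In the fit with the replicate block 4 oligodendrocyte lineage markers were higher and 3 lower, and 0 fibroblast and pericyte markers were higher and 5 lower. In the same fit 5 astrocyte markers were higher and 2 lower, and 2 neuronal markers were higher and 7 lower. That fit called 29.8% of all genes higher and 28.0% lower, so several of these counts lie near the general rate. None of the 7 microglia markers in the table reached the filter, and together they drew between 5 and 68 counts per library, with Cx3cr1 and C1qa at 0 in all 4 processes libraries. The endothelial marker Cldn5 was at 0 in all 8 libraries. These marker genes, like the ones named below from lists with few calls, were singled out after their values were seen.

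Apc had 582 and 513 CPM in the 2 somata control libraries and 376 and 381 CPM in the 2 somata PTX libraries. In processes it had 2940 and 2398 CPM in the control libraries and 2363 and 1795 CPM in the PTX libraries. Every processes library thus lay above every somata library, and within each compartment the control libraries lay above the PTX libraries without overlap. The order of the group means was processes control (2669 CPM ± 383, SD, n = 2), processes PTX (2079 CPM ± 402, SD, n = 2), somata control (547 CPM ± 48.5, SD, n = 2) and somata PTX (378 CPM ± 3.19, SD, n = 2). Between the processes groups the gap was narrow, since the lower control library and the higher PTX library differed by little. The fitted log2 fold change between processes and somata was 2.29 in control cultures, a 4.88-fold difference, and 2.46 under PTX, a 5.49-fold difference. Because Apc was picked for its abundance in processes, these values describe it and carry no test. Scaled by total counts alone, the differences were 0.47 and 0.62, so that Apc stayed higher in processes even per count of the whole library, mitochondrial transcripts included.

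By reads, Apc was the 5th and 8th most abundant of 28872 symbols outside the mitochondrial genome in the 2 processes control libraries and the 9th and 11th in the processes PTX libraries. It took 0.520% and 0.434% of the counts outside the mitochondrial genome in processes control, and 0.427% and 0.325% in processes PTX. In somata its ranks were 35 and 50 in control and 73 and 70 under PTX, with shares between 0.0932% and 0.143%. In processes control replicate 1, with 26361 reads, it stood just below Map2 (42089 reads) and just above Sparc (24349 reads). In processes PTX replicate 2, with 17851 reads, its neighbours were the kinesin gene Kif5c (19591 reads) and B2m (16772 reads). These ranks count reads and make no allowance for transcript length, so a long transcript such as that of Apc ranks higher than its number of molecules would place it.

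**Figure D1:**
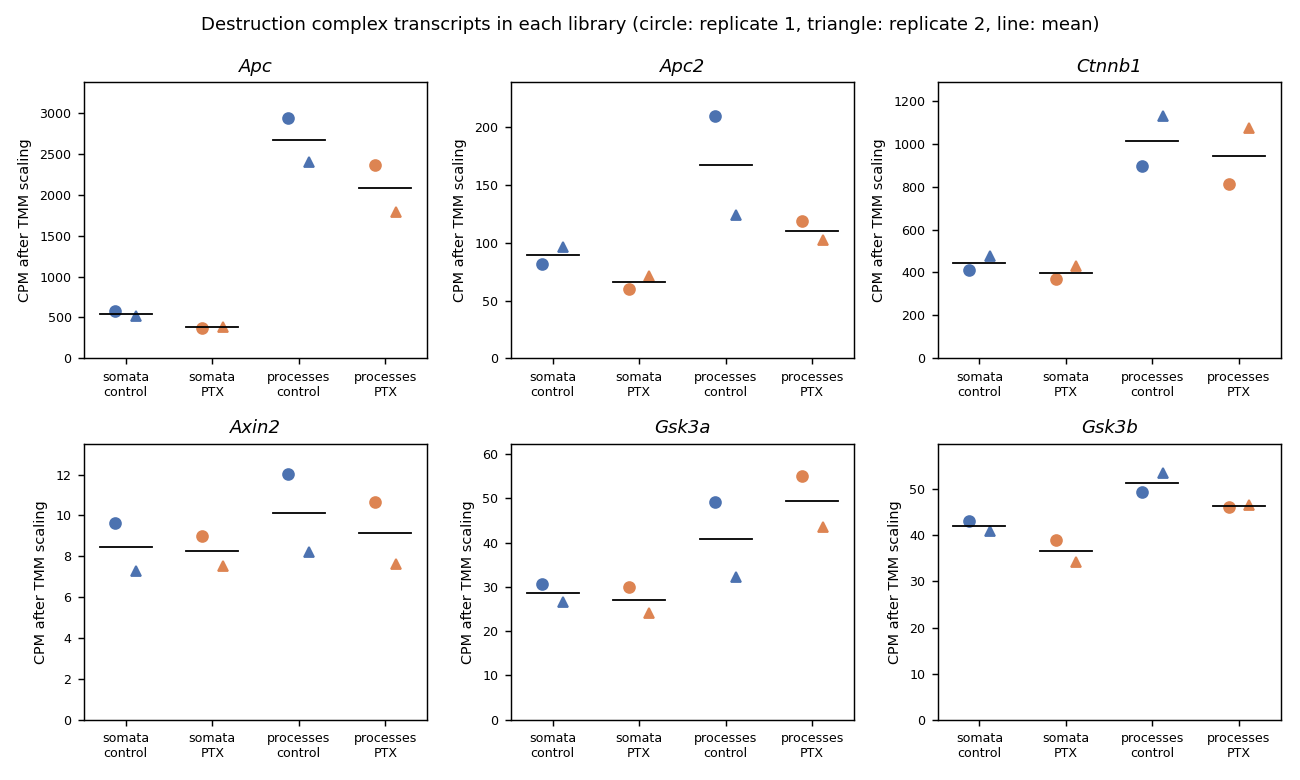
Level of the 6 destruction complex transcripts in each of the 8 libraries, in CPM after TMM scaling (vertical axes start at 0 and differ between panels), by group on the horizontal axis; circles are replicate 1, triangles replicate 2, and lines the mean of 2 libraries. Apc lies between 1795 and 2940 CPM in processes and between 376 and 582 CPM in somata.

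Apc2, the second and mainly neuronal Apc protein, had 81.7 and 96.6 CPM in somata control and 59.9 and 71.6 CPM in somata PTX. In processes it had 210 and 124 CPM in control and 119 and 102 CPM under PTX. Processes libraries again lay above somata libraries in both conditions, with 1 high value in processes control replicate 1. The log2 fold change between processes and somata was 0.90 in control cultures (SE 0.21, edgeR adjusted p = 0.00487) and 0.75 under PTX (SE 0.21, edgeR adjusted p = 0.013), higher in both replicates each time. In control cultures the value was 0.48 without processes control replicate 1 (edgeR adjusted p = 0.0449) and 1.23 without replicate 2. The call under PTX was lost without somata PTX replicate 1 (edgeR adjusted p = 0.0761) or processes PTX replicate 1 (edgeR adjusted p = 0.0758).

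Ctnnb1, which encodes β-catenin, the substrate of the complex, had 411 and 476 CPM in somata control and 370 and 429 CPM in somata PTX. In processes it had 895 and 1130 CPM in control and 810 and 1071 CPM under PTX. The lowest processes library held well over the highest somata library, while control and PTX overlapped in each compartment. Ctnnb1 was 2.28-fold higher in processes of control cultures (log2 fold change 1.19, SE 0.17, edgeR adjusted p = 0.000258) and 2.36-fold higher under PTX (log2 fold change 1.24, SE 0.17, edgeR adjusted p = 0.00019). Among all tested genes, 8.75% had a larger log2 fold change towards processes in control cultures.

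Of the kinases, Gsk3a had 30.6 and 26.7 CPM in somata control, 30.1 and 24.0 CPM in somata PTX, 49.3 and 32.3 CPM in processes control, and 55.1 and 43.6 CPM in processes PTX. The processes libraries were the higher ones throughout, by a wide margin under PTX and with 1 control library close to the somata. Its log2 fold change between processes and somata was 0.51 in control cultures (SE 0.20, edgeR adjusted p = 0.0538; 0.00041 with the replicate number as a block) and 0.86 under PTX (SE 0.20, edgeR adjusted p = 0.0041). The value in control cultures depended on the processes control libraries, at 0.17 without replicate 1 (edgeR adjusted p = 0.518) and 0.78 without replicate 2 (edgeR adjusted p = 0.0113). It was 0.31 under upper quartile scaling (edgeR adjusted p = 0.206), or 0.56 relative to the median of all genes, and passed with DESeq2 (adjusted p = 0.0345) and edgeR's likelihood ratio test (adjusted p = 0.0336).

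Gsk3b had 43.1 and 40.9 CPM in somata control, 39.0 and 34.3 CPM in somata PTX, 49.3 and 53.4 CPM in processes control, and 46.0 and 46.5 CPM in processes PTX. No groups overlapped, yet the distances were small. The log2 fold change between compartments was 0.29 in control cultures (SE 0.11, edgeR adjusted p = 0.0513; 0.0144 with the replicate block) and 0.33 under PTX (SE 0.11, edgeR adjusted p = 0.0284). The latter was lost without somata PTX replicate 2 (edgeR adjusted p = 0.187), without processes PTX replicate 1 (0.0746) or replicate 2 (0.0947), under upper quartile scaling (0.259), without a filter (0.0635) and with a filter of 10 reads in every library (0.0646). Upper quartile scaling put the control value at 0.09, or 0.34 relative to the median of all genes, which it moved to −0.25.

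Axin2, a scaffold of the complex and itself a target of β-catenin, was the least read member. It had 9.61 and 7.29 CPM in somata control, 8.99 and 7.54 CPM in somata PTX, 12.04 and 8.22 CPM in processes control, and 10.7 and 7.64 CPM in processes PTX. Replicate 1 was the higher library in every group and all 4 groups overlapped. The log2 fold changes between compartments, 0.27 in control cultures (95% interval −0.25 to 0.78, edgeR adjusted p = 0.366) and 0.14 under PTX (95% interval −0.38 to 0.66, edgeR adjusted p = 0.644), did not pass the test.

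Counting the 5 members other than Apc, 2 were higher in processes of control cultures (Apc2 and Ctnnb1; 4 with the replicate block) and 4 under PTX (all but Axin2), and 0 were lower. Over all tested genes 25.8% were called higher and 21.9% lower in processes of control cultures, and 25.7% and 24% under PTX, so that calls in this comparison are common and 5 genes are too few to set the members apart. The members' median log2 fold change was 0.51 in control cultures and 0.75 under PTX, against −0.05 over all genes in both. The split of all calls depends on the scaling, with 3688 higher and 3135 lower in control cultures after TMM scaling, 2750 and 4704 after upper quartile scaling, and 191 and 13271 by total counts alone. Under PTX these splits were 3680 and 3441, 2904 and 4768, and 181 and 13318. By total counts alone Apc2, Ctnnb1, Axin2, Gsk3a and Gsk3b turned lower in processes, in control cultures by −0.93, −0.60, −1.55, −1.31 and −1.51 on the log2 scale, but relative to the median of all genes under that scaling they lay at 0.93, 1.25, 0.31, 0.54 and 0.34.

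**Figure D2:**
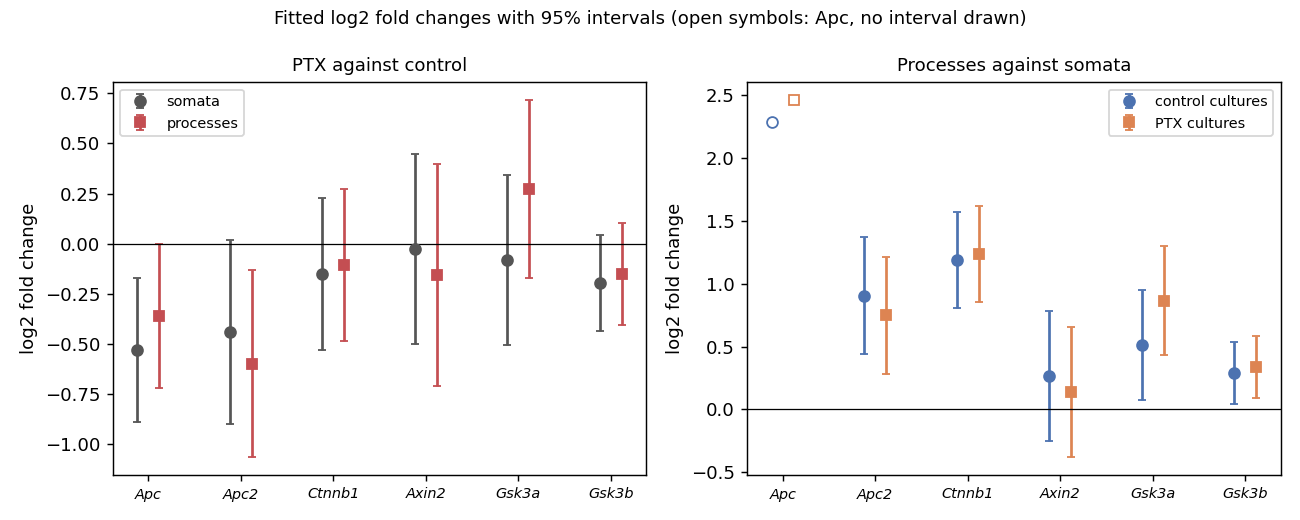
Fitted log2 fold changes of the 6 transcripts, for PTX against control in somata and processes (left) and for processes against somata in control and PTX cultures (right); bars are 95% intervals of the edgeR fit over 8 libraries, and open symbols mark Apc, whose difference between compartments is given with no test. Under PTX, Apc2 in processes has the lowest value (−0.60) and Gsk3a in processes the highest (0.27).

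In the fit over all 8 libraries the 2 Apc genes had the lowest values of the complex under PTX. In processes this order rested on single libraries. Without processes control replicate 1 Ctnnb1 (−0.265) and Gsk3b (−0.208) lay below Apc (−0.206) and Apc2 (−0.173). Without processes PTX replicate 2 Ctnnb1 (−0.322) lay below Apc (−0.176) but above Apc2 (−0.491). In somata the log2 fold change of Apc was −0.53 (SE 0.16, 95% interval −0.89 to −0.17), a level 30.8% below control, with both replicates lower by −0.63 and −0.43. This did not pass the test over all genes (edgeR adjusted p = 0.115, unadjusted p = 0.00764) but did with the replicate block (edgeR adjusted p = 0.00125) and with DESeq2 (adjusted p = 0.0213). In processes the value was −0.36 (SE 0.16, 95% interval −0.72 to −0.00, edgeR adjusted p = 0.298; 0.027 with the replicate block), with replicates at −0.32 and −0.42. This value was −0.21 without processes control replicate 1, −0.18 without processes PTX replicate 2 and −0.57 without processes PTX replicate 1. Of all tested genes 95.7% had a higher value than Apc in somata, and 84.5% in processes.

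For Apc2 the log2 fold change was −0.44 in somata (SE 0.21, edgeR adjusted p = 0.347; 0.0484 with the replicate block) and −0.60 in processes (SE 0.21, edgeR adjusted p = 0.173; 0.0125 with the replicate block). Its libraries did not overlap in either compartment. The replicates gave −0.45 and −0.43 in somata, but −0.82 and −0.29 in processes. There the high processes control replicate 1 set the size, since the log2 fold change was −0.17 without it and −0.93 without processes control replicate 2 (edgeR adjusted p = 0.022).

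The kinases, β-catenin and Axin2 showed no call under PTX. Ctnnb1 stood at −0.15 in somata (95% interval −0.53 to 0.23) and −0.11 in processes (95% interval −0.48 to 0.27). Gsk3b stood at −0.19 (95% interval −0.43 to 0.04) and −0.15 (95% interval −0.40 to 0.10). With single libraries left out Ctnnb1 ranged from −0.27 to −0.05 in somata and changed sign in processes, where its replicate pairs gave −0.14 and −0.08, and Gsk3b ranged from −0.30 to −0.11 in somata and was −0.09 in processes without processes control replicate 2. Changes within the intervals could not be told from 0 with 2 libraries per group. Gsk3a stood at −0.08 in somata and, as the only member above 0, at 0.27 in processes (95% interval −0.17 to 0.72, edgeR adjusted p = 0.56). The replicate pairs gave 0.16 and 0.43, while leaving out a library, which breaks a pair, moved the value to 0.000485 without processes control replicate 2, 0.0955 without processes PTX replicate 1, 0.61 without processes control replicate 1 and 0.43 without processes PTX replicate 2. Axin2, the member that reports β-catenin activity in many tissues, stood at −0.03 in somata (95% interval −0.50 to 0.45) and −0.16 in processes (95% interval −0.71 to 0.40), and changed sign when single libraries were left out. Its replicate pairs gave −0.09 and 0.05 in somata and −0.17 and −0.10 in processes.

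With edgeR's quasi-likelihood test 0 of 6 members were therefore called in somata, where 2.09% of all genes were higher and 1.5% lower. In processes 0 of 6 were called, where 1.64% of all genes were higher and 2.1% lower. This balance in processes turned when scaled by total counts (237 higher, 220 lower) and with only the 4 processes libraries (160 and 138). It also turned without processes control replicate 1 or without processes PTX replicate 2. At an unadjusted p under 0.05 there was 1 member in somata (Apc) and 2 in processes (Apc and Apc2), where all genes had shares of 15.6% and 16.6%. DESeq2 and edgeR's likelihood ratio test each called 1 member in somata (Apc) and 0 in processes. Of the 14309 tested genes DESeq2 called 503 in somata and 620 in processes, and the likelihood ratio test 972 and 949. With the replicate block 2 were called in each compartment, Apc and Apc2, both lower, but that fit also called 14% of all genes in somata and 11.2% in processes. The median of the 6 was −0.17 in somata and −0.15 in processes, against −0.01 over all genes in each.

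Whether PTX acted differently in the compartments was tested by the interaction, the effect in processes minus that in somata. It was 0.17 for Apc (95% interval −0.33 to 0.68), −0.16 for Apc2 (−0.81 to 0.49), 0.04 for Ctnnb1 (−0.49 to 0.58), −0.13 for Axin2 (−0.86 to 0.60), 0.35 for Gsk3a (−0.26 to 0.97) and 0.04 for Gsk3b (−0.30 to 0.39). With single libraries left out the value of Gsk3a ranged from 0.08 to 0.69, and those of the other 5 members changed sign. By edgeR's quasi-likelihood test 0 members and 0% of all genes were called, and 572 of all genes but 0 members had an unadjusted p under 0.05. DESeq2 and the likelihood ratio test called 4 genes each and the fit with the replicate block 15, among them 0 members.

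Markers also moved with PTX. In somata the markers of GABAergic neurons Gad1 and Gad2 were higher (log2 fold change 0.82 and 0.92, edgeR adjusted p = 0.0247 and 0.0328), Rbfox3 was lower (−0.67, edgeR adjusted p = 0.0221) and 1 of 9 astrocyte markers, Gja1, was lower (−0.61, edgeR adjusted p = 0.0215). In processes Slc17a7 and Gad2 were the 2 of 10 neuronal markers called, both higher. The median of the 10 was below 0, at −0.24 in somata and −0.23 in processes, with 7 and 6 of them negative. In processes 0 astrocyte markers were called. The effect on Slc17a7 in processes minus that in somata, 1.07 on the log2 scale, did not pass (edgeR adjusted p = 0.758; 0.000451 with the replicate block). Of 5 markers of proliferating cells 1 was higher in somata (Cdk1) and 3 in processes (Top2a, Cdk1 and Ccnb1), and their summed level was 125 and 147 CPM in processes control against 243 and 247 CPM in processes PTX. Kdr was higher in somata (log2 fold change 1.41, edgeR adjusted p = 0.0102). No oligodendrocyte lineage, fibroblast or pericyte marker was called in either compartment (0 of 10 and 0 of 6), though the latter list differed between replicates, with summed levels of 119 and 47.3 CPM in somata control. With the replicate block, which called 14% of all genes in somata and 11.2% in processes, 2 neuronal markers were higher and 5 lower in somata, and 3 higher and 5 lower in processes. That fit called 2 astrocyte markers in somata, both lower, and 1 higher and 1 lower in processes. It called 2 oligodendrocyte lineage markers in somata and 1 in processes, all lower, 3 and 1 fibroblast and pericyte markers, all higher, and 4 and 4 markers of proliferating cells, all higher. The part of these shifts in the values of the Apc genes was not tested.

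The transcripts whose profile over the 8 libraries lay nearest to that of Apc, by the root mean square distance of centred log2 CPM over the 10207 genes that averaged 5 CPM or more, were Snph (distance 0.10), Gng7 (0.12), Panx2 (0.13), Mllt6 (0.14) and AABR07065498.1 (0.14). Snph encodes syntaphilin, which anchors mitochondria in axons, Gng7 a G protein subunit and Panx2 a pannexin channel. Snph had means of 52.8 and 41.1 CPM in somata control and PTX and of 307 and 215 CPM in processes control and PTX. Its log2 fold change between processes and somata of control cultures was 2.54, that of Gng7 2.53 and that of Panx2 2.29, beside 2.29 for Apc. Over the 8 libraries the Pearson correlation with Apc was 0.997 for Snph and 0.998 for Gng7, a description that mostly reflects the step between the compartments. Among the members, Ctnnb1 was 1007th in this order (distance 0.66), Apc2 1581st (0.80), Gsk3a 2177th (0.90), Gsk3b 3427th (1.05) and Axin2 4096th (1.11). Their correlations with Apc over the 8 libraries were 0.937 for Ctnnb1, 0.868 for Apc2, 0.837 for Gsk3a, 0.890 for Gsk3b and 0.502 for Axin2, and the distance depends largely on the size of the step between compartments.

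Beyond the members, 10 lists covered the Wnt/β-catenin pathway and the other binding partners of Apc, with 143 further genes, of which 114 were tested. Under PTX 0 of the 114 were higher and 2 were lower in somata (1.75%), and 0 were higher and 3 lower in processes (2.63%). Of all genes 2.09% were higher and 1.5% lower in somata, and 1.64% and 2.1% in processes. At an unadjusted p under 0.05 there were 12 in somata (10.5%) and 17 in processes (14.9%), against 15.6% and 16.6% of all genes. DESeq2 called 1 and 4 of the 114, against 503 and 620 of the 14309 tested genes. With the replicate block 14 were called in somata (12.3%) and 11 in processes (9.65%), below the 14% and 11.2% of all genes under that fit. The median log2 fold change was −0.02 in somata and 0.03 in processes, against −0.01 in both over all genes. For the interaction 0 of 114 were called by edgeR's quasi-likelihood test, DESeq2, the likelihood ratio test or the fit with the block, with 3 at an unadjusted p under 0.05.

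Among the Wnt ligands 7 of 19 passed the filter (median −0.01 in somata and −0.09 in processes) and Wnt4 was the called one, joined by Wnt7a in somata with the replicate block (−0.50, edgeR adjusted p = 0.0897; 0.00888 with the block). It had 6.16 and 8.42 CPM in somata control against 2.30 and 1.82 CPM in somata PTX, and 6.36 and 5.99 CPM in processes control against 1.72 and 0.905 CPM in processes PTX. Control and PTX libraries were far apart in both compartments, although the processes PTX libraries held just 15 and 9 reads. Wnt4 fell by 1.81 on the log2 scale in somata (SE 0.25, edgeR adjusted p = 0.00346), to a level 3.52-fold lower, and by 2.25 in processes (SE 0.34, edgeR adjusted p = 0.00656). The call in processes was lost without processes control replicate 1 (edgeR adjusted p = 0.0587) or processes PTX replicate 2 (0.0602). Wnt7b, the most abundant ligand of the list by reads, had values of 0.14 in somata and 0.18 in processes and was not called. The value of Wnt7b in processes was 0.07 without processes PTX replicate 1 and 0.30 without processes control replicate 1.

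Upstream of the complex edgeR's quasi-likelihood test called no other gene under PTX. The receptors and co-receptors (17 of 18 tested, median −0.02 in somata and 0.13 in processes) included Fzd3, their most read gene, at −0.02 and 0.09. The fit with the replicate block called 14% of all genes in somata and 11.2% in processes. In that fit the co-receptor gene Lrp5 was called higher in both compartments and Lgr4, a receptor of R-spondins, lower in somata. The extracellular and membrane modulators (14 of 24 tested, median 0.04 and 0.03) had Wls, the carrier that brings Wnt proteins to the cell surface, at −0.19 and 0.05. In somata the value of Wls was −0.11 without somata PTX replicate 1. With the block, Frzb was called lower and Rspo3 higher in somata. In the Dishevelled list (9 of 11 tested, median −0.02 and 0.13) Dact3, a Dishevelled-binding regulator, stood at 0.26 in somata and 0.57 in processes (edgeR adjusted p = 0.0809; 0.000495 with the replicate block). In processes Dact3 was also called by edgeR's likelihood ratio test (adjusted p = 0.0223), DESeq2 (adjusted p = 0.0226), under scaling by total counts (edgeR adjusted p = 0.0276) and without a filter (edgeR adjusted p = 0.000935), and its value was 0.34 without processes control replicate 2.

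The further kinases, scaffolds and phosphatase subunits of the complex (15 of 15 tested) had medians of −0.00 in somata and 0.04 in processes, and 0 were called. Their most read gene, Ppp2r1a, the scaffold subunit of the phosphatase, stood at −0.03 and −0.28 (in processes −0.17 without processes control replicate 1). With the block, which called 14% of all genes in somata and 11.2% in processes, Amer3 was called lower in both compartments and Ppp2r1b higher in somata. The ubiquitination and tankyrase list (11 of 11 tested, median −0.04 and 0.02), which holds the ligase that takes up phosphorylated β-catenin and the enzymes that mark Axin, had 0 calls with or without the block, and Skp1 stood at −0.14 and 0.03.

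Among TCF/LEF factors and nuclear partners (16 of 16 tested, median −0.09 and −0.04), Bcl9l, which links β-catenin to Pygopus, was called lower in processes. It had 65.7 and 41.5 CPM in processes control against 26.2 and 22.7 CPM in processes PTX, and 17.2 and 17.4 CPM in somata control against 13.2 and 13.1 CPM in somata PTX. PTX libraries were the lower ones in both compartments, by more in processes. Bcl9l fell by 1.13 on the log2 scale in processes (SE 0.19, edgeR adjusted p = 0.0104), and its value in somata was −0.40 (SE 0.18, edgeR adjusted p = 0.339; 0.0443 with the replicate block). The difference between these effects was −0.74 (SE 0.26, unadjusted p = 0.0179, edgeR adjusted p = 0.999993) and did not pass. The call in processes was lost without processes control replicate 1, where the value was −0.76 (edgeR adjusted p = 0.0543), without processes PTX replicate 1 (0.0516) and without processes PTX replicate 2 (0.0881). Ctbp1, a corepressor and the most read gene of the list, stood at 0.02 and 0.16. Lef1 was called higher in somata with the block (edgeR adjusted p = 0.0969 without it, 0.00694 with it), which called 14% of all genes there.

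The β-catenin target genes (9 of 13 tested, median 0.08 in somata and 0.34 in processes) had 0 calls. Ccnd1, which encodes cyclin D1, stood at 0.21 in somata and 0.36 in processes (edgeR adjusted p = 0.245; 0.0129 with the replicate block), and at 0.07 in somata without somata PTX replicate 2 and 0.16 in processes without processes PTX replicate 2. Of 5 markers of proliferating cells 1 was called higher under PTX in somata and 3 in processes, as given above. A link between these and the values of Ccnd1 was not tested. Of these 9 genes 5 had a value above 0 in somata and 7 in processes, where the median of all genes was −0.01 in each. At an unadjusted p under 0.05 there were 1 in somata (11.1%) and 2 in processes (22.2%), against 15.6% and 16.6% of all genes. With 9 genes these counts are too small to set the list apart. In somata the likelihood ratio test and the fit with the replicate block each called 1 higher (with the block Lef1), and in processes they called 0 and 1 (Ccnd1). DESeq2 called 0 of 9 in either compartment.

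In the cadherin-catenin adhesion list (8 of 10 tested, median 0.00 and 0.13) Jup was called lower in both compartments. Jup encodes plakoglobin, or γ-catenin, the closest relative of β-catenin. It had 12.7 and 11.9 CPM in somata control against 8.59 and 6.48 CPM in somata PTX, and 14.5 and 14.4 CPM in processes control against 6.09 and 7.04 CPM in processes PTX. No PTX library reached a control library. Jup fell by 0.70 on the log2 scale in somata (SE 0.16, edgeR adjusted p = 0.0344) and by 1.14 in processes (SE 0.19, edgeR adjusted p = 0.0102). In somata the call was not made by DESeq2 (adjusted p = 0.0588) and was lost without somata control replicate 1 (edgeR adjusted p = 0.189) or replicate 2 (0.154) or somata PTX replicate 2 (0.235), under scaling by total counts (0.0892) and with only the 4 somata libraries (0.0595). In processes it was lost without processes control replicate 1 (edgeR adjusted p = 0.0707) or processes PTX replicate 1 (0.0752). Ctnnd2, a δ-catenin of neurons and the most read gene of the list, stood at −0.03 and 0.31 (in processes edgeR adjusted p = 0.19; 0.0262 with the replicate block).

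The partners of Apc at microtubule ends and on motors (14 of 15 tested, median −0.08 and −0.05) had 0 calls under PTX. Macf1, a large linker of microtubules and actin and the most read gene of the list, stood at −0.10 and 0.11. With the replicate block, under which 6.79% of all genes were lower in somata and 6.09% in processes, 3 were called lower in somata (Mapre3, Clasp2 and Kif3a) and 3 lower in processes (Mapre3, Diaph1 and Arhgef4). Without the block 3 in each compartment had an unadjusted p under 0.05 (all genes 15.6% and 16.6%), and DESeq2 and the likelihood ratio test called 0 in each.

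**Figure D3:**
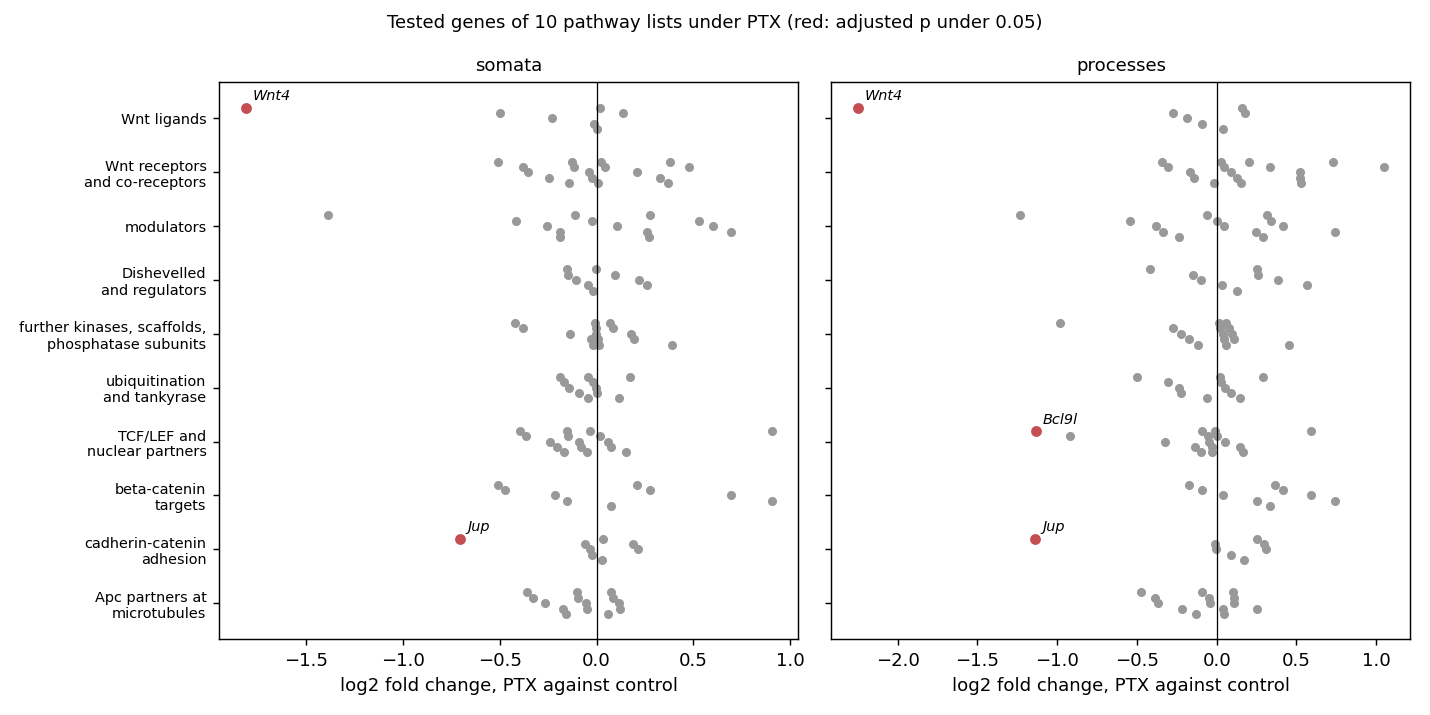
Log2 fold change of every tested gene of the 10 pathway lists for PTX against control, in somata (left) and processes (right), 1 row per list with points spread vertically for legibility; red points have an adjusted p under 0.05 by edgeR's quasi-likelihood test. Wnt4 and Jup are called lower in both compartments and Bcl9l in processes.

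Between compartments of control cultures 34 of the 114 pathway genes were higher in processes (29.8%) and 21 lower (18.4%), against 25.8% and 21.9% of all genes. Under PTX 33 were higher (28.9%) and 20 lower (17.5%), against 25.7% and 24%. The fit with the block put these counts at 36 and 31 in control cultures (31.6% and 27.2%), against 29.8% and 28.0% of all genes, and 40 and 26 under PTX (35.1% and 22.8%), against 30.0% and 29.6%. By list, the genes higher and lower in processes of control cultures were 0 and 2 of 7 Wnt ligands (Wnt2b and Wnt7a), 2 and 4 of 17 receptors and co-receptors, 1 and 4 of 14 modulators, 4 and 1 of 9 Dishevelled genes, and 3 and 3 of 15 further kinases, scaffolds and phosphatase subunits. They were 6 and 0 of 11 ubiquitination and tankyrase genes, 7 and 2 of 16 TCF/LEF factors and nuclear partners, 2 and 2 of 9 target genes, 4 and 2 of 8 cadherin-catenin genes, and 6 and 3 of 14 Apc partners. Under the fit with the replicate block the counts of the 10 lists, in this order, were 0 and 2, 2 and 7, 1 and 5, 4 and 2, 5 and 3, 6 and 0, 7 and 5, 2 and 4, 4 and 3, and 6 and 3, and DESeq2 called 4 and 0 TCF/LEF factors and nuclear partners. For the ligands the likelihood ratio test and DESeq2 also called 0 of 7 higher, and for the ubiquitination and tankyrase genes 0 of 11 lower. The medians, in the same order of lists, were −0.30, −0.26, −0.48, 0.23, 0.17, 0.37, 0.02, −0.36, 0.31 and 0.08, against 0.51 for the members without Apc and −0.05 over all genes. Differences between lists were not tested.

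Promoter windows from RefSeq (assembly GRCr8, 250 bases before to 50 bases after the start of the gene) were matched by symbol for 6 of the 7 members, all but Axin1. They were searched on both strands for the letters CTTTGAT and CTTTGTT, forms of the TCF/LEF motif, for TGACGTCA, the full cAMP response element, and for CACGTG, an E-box. These letters occur in 3.63%, 5.98%, 1.83% and 6.42% of all 33469 windows of the table. Among the members 1 window held a TCF/LEF form, that of Axin2, and 1 held CACGTG, that of Gsk3b, and TGACGTCA was in 0 of the 6. The window of Axin2 is printed because Axin2 is the member known as a target of β-catenin and did not pass any test under PTX; it lies on the plus strand at chr10:94398535-94398834, and the capitals mark CTTTGAT, which starts 132 bases before the start of the gene.
Axin2: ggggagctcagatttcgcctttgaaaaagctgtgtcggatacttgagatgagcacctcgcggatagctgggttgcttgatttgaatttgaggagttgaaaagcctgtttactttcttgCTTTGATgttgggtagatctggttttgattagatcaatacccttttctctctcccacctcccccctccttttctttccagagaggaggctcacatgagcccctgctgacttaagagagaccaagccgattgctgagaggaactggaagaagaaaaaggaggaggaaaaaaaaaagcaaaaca
A match is a description of the letters in this window.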

How the data were processed

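As the authors deposited them, the counts are reads per gene symbol for 8 libraries, which the labels say were aligned with STAR to Rnor_6.0 and counted with featureCounts. The methods of the study name Trimmomatic, Subread and Ensembl annotation before featureCounts instead, and the difference is unresolved. The library kit was NEBNext Ultra Directional, and the strand setting of the counting is not given. From these counts edgeR 4.0.16 in R 4.3.3 (limma 3.58.1) took TMM factors, kept a gene if 2 or more libraries held over 20 of its reads, fitted 1 coefficient per group over all 8 libraries, and tested by quasi-likelihood with Benjamini-Hochberg adjustment over all tested genes at 0.05. The SE is the absolute log2 fold change over the square root of F. The replicate numbers pair libraries across groups: over 14309 genes the deviations from the group mean correlated at 0.274 to 0.540 between groups. Adding the replicate number to the fit as a blocking factor moved the common coefficient of variation from 11.5% to 6.77%. The residual degrees of freedom went from 4 to 3. The fit without the block is the one reported. The study also fitted no block, but it used the likelihood ratio test, here an alternative to quasi-likelihood. That test called 972 genes in somata and 949 in processes, and among the members Apc in somata (likelihood ratio test, adjusted p = 0.0394). Also tried were edgeR's likelihood ratio test, DESeq2 1.42.0, other scalings and filters, only the 4 compared libraries, the block, and leaving out each library. The members, the 10 pathway lists and the 7 marker lists were chosen with earlier results of these data known. Axin1, Znrf3, Frat1, Ctnna3, Mapre2, Itgam and Pecam1 had no entry in the table and were not analysed here. The tables of the authors' PTX comparisons (log2 fold changes, log2 CPM, likelihood ratios, p and FDR) were not used. Replicates differed beyond counting noise, with a chi-square per degree of freedom of 9.11 to 21.1. No transcript lengths were used, so orders of genes by reads or CPM, such as the ranks of Apc, do not compare numbers of molecules.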

Additional observations from a re-analysis of the deposited data

How the results depend on the processing

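The 5 comparisons of the members, the PTX effects of the named list genes and the call counts were repeated under other choices, and DESeq2 changes scaling, dispersion and test together. Marker genes, the Bcl9l interaction and the per-list compartment counts were not repeated under other scalings or with libraries left out. Of 944 alternative values for 56 gene results 842 kept their sign and, where tested, their call, some at a much changed size. Another 47 changed sign, 28 gained a call and 21 lost one. The other 6 belong to the untested compartment values of Apc, which moved by more than their SE. PTX calls over all genes in somata went to 972 with the likelihood ratio test, 1141 without a filter and 2002 with the replicate block, and to between 117 and 568 with 1 library left out. In processes they went to 949, 1129 and 1601, to 298 with only the 4 compared libraries, and to between 97 and 478. Members called in somata became 1 with the likelihood ratio test, DESeq2 or only the 4 libraries, and 2 without a filter or with the block; in processes 1 without a filter, 2 with the block, and 0 to 1 with 1 library left out. Interaction calls became 4 with the likelihood ratio test and with DESeq2, 10 without a filter and 15 with the block. Between compartments, library size alone called 13462 genes in control and 13499 under PTX, and the part of the mitochondrial counts in this was not tested. Members called besides Apc in control became 5 by library size alone, all lower. All higher, they became 4 with the block and 3 with the likelihood ratio test, DESeq2, no filter or only the 4 libraries. Under PTX they became 5 by library size alone, all lower, and 3 under upper quartile scaling, without a filter or with at least 10 reads in every library. Fewer were also called under PTX with some single libraries left out. Library size alone reversed these compartment values (control, PTX): Apc2 −0.93, −1.08; Ctnnb1 −0.60, −0.58; Axin2 −1.55, −1.69; Gsk3a −1.31, −0.97; Gsk3b −1.51, −1.49. It also reversed the PTX effect in somata of Axin2 (0.0407), Fzd3 (0.0430), Ppp2r1a (0.0382) and Ctnnd2 (0.0317), and upper quartile scaling that of Ctbp1 (−0.000451) and the compartment value of Axin2 under PTX (−0.0382). These 16 reversals by scaling are among the 47, and 0 of them changed sign relative to the median of all genes, which library size alone moved to 0.0599 for PTX in somata. With 1 library left out, signs changed for PTX in somata for Axin2 (−0.23 to 0.18), Gsk3a (−0.26 to 0.0631), Ppp2r1a (−0.0731 to 0.000335), Ctbp1 (−0.0485 to 0.0760) and Ctnnd2 (−0.10 to 0.0167); in processes for Ctnnb1 (−0.32 to 0.0807), Axin2 (−0.41 to 0.15), Fzd3 (−0.0550 to 0.21), Wls (−0.0345 to 0.13) and Skp1 (−0.00648 to 0.0631); for the interaction of Apc (−0.0402 to 0.36), Apc2 (−0.48 to 0.27), Ctnnb1 (−0.17 to 0.23), Axin2 (−0.38 to 0.18) and Gsk3b (−0.0353 to 0.15); and for Axin2 between compartments (−0.0368 to 0.51 in control, −0.12 to 0.37 under PTX). A group left with 1 library is assumed to vary like the others. The cause of the other shifts was not tested.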
